A study of Mus musculus with 12 samples.

Results

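Hippocampal transcripts of adult neurogenesis and of immature neurons were examined in APP/PS1 and WT mice of both sexes. The group was defined by name, as Dcx, Sox11, Sox4, Neurod1, Igfbpl1, Draxin, Calb2, Dpysl3 and Eomes, which are 9 of the 55573 genes in the count table. APP/PS1 mice carry a chimeric mouse/human APP transgene with the Swedish mutation and a human PS1 transgene without exon 9 (APPSwe/PS1dE9), both under a prion promoter element, and WT mice carry neither. All animals were on the C57BL/6J strain and 4.5 months old. RNA came from the whole right hippocampus, and 12 poly-A libraries were made, from 4 APP/PS1 and 2 WT animals of each sex. Each sex therefore rested on 2 WT animals, and the prion promoter drives the transgenes in many cell types rather than in newborn neurons alone.

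Adult neurogenesis in the hippocampus takes place in the subgranular zone of the dentate gyrus. There, radial glia-like stem cells give rise to dividing intermediate progenitors, then to neuroblasts and immature granule neurons, and these mature into granule neurons over several weeks. Eomes (Tbr2) marks intermediate progenitors, Neurod1 is a transcription factor of late progenitors and young granule neurons, Sox4 and Sox11 are transcription factors that switch on the immature neuron programme, and Dcx (doublecortin) binds microtubules in migrating neuroblasts and is the standard marker of immature granule neurons. Dpysl3 (CRMP4) shapes the growth cone, Draxin is a secreted axon guidance molecule, Igfbpl1 is a secreted relative of the insulin-like growth factor binding proteins found in neuroblasts, and Calb2 (calretinin) is a calcium buffer that young granule neurons hold briefly. Several of these genes are not limited to newborn neurons. Calb2 is also made by interneurons, Cajal-Retzius cells and mossy cells, and Sox4, Dpysl3 and Neurod1 by other neurons or glia, so a whole-hippocampus level is a sum over cell types.

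Counts on genes lay between 36714316 and 50643565 per library. As a check of the genotype labels, Thy1 lay between 2187 and 3305 CPM (counts scaled to library size, normalized by upper-quartile factors) in the APP/PS1 animals and between 724 and 749.8 CPM in the WT animals, and Cst7, a gene of plaque-associated microglia, between 6.08 and 14.8 and between 0.026 and 0.11 CPM. APP/PS1 female 1, WT female 2 and APP/PS1 male 2 held choroid plexus transcripts, with Ttr (transthyretin) between 3526 and 6318 CPM against 2.68 to 18.2 CPM in the other 9 libraries. Results for which these 3 libraries mattered are given with and without them. Markers of hippocampal neurons (6 genes) summed to between 5088 and 5800 CPM in every library, and T and NK lymphocyte markers (9 genes) to between 0.16 and 0.86 CPM.

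All members are annotated as protein-coding on GRCm38 by GENCODE release M21. Dcx (ENSMUSG00000031285) lies on chromosome X between 143855842 and 143933311, Sox11 (ENSMUSG00000063632) on chromosome 12 between 27334264 and 27342574, and Sox4 (ENSMUSG00000076431) on chromosome 13 between 28948919 and 28953713. Neurod1 (ENSMUSG00000034701) lies on chromosome 2 between 79452521 and 79456751, Igfbpl1 (ENSMUSG00000035551) on chromosome 4 between 45809468 and 45826923, and Draxin (ENSMUSG00000029005) on chromosome 4 between 148098437 and 148130698. Calb2 (ENSMUSG00000003657) lies on chromosome 8 between 110137502 and 110168210, Eomes (ENSMUSG00000032446) on chromosome 9 between 118478212 and 118486132, and Dpysl3 (ENSMUSG00000024501) on chromosome 18. Eomes is on the plus strand and the other 8 are on the minus strand. Exons of Neurod1 overlap those of Cerkl on the same strand, an overlap that no strand setting separates. Neurod1, Sox4 and Eomes each overlap 1 antisense gene, and the strand setting of the counting is not given in the sources used here. The counts of these 3 genes therefore carry some uncertainty.

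The members covered a wide range of abundance. Per kilobase of exon, the mean level over the 12 libraries was highest for Calb2 (18.4 ± 4.95 CPM per kb, SD, n = 12), followed by Dpysl3 (10.6 ± 0.95), Neurod1 (7.87 ± 0.94) and Sox4 (6.07 ± 0.52). Sox11 (2.58 ± 0.28) and Dcx (1.56 ± 0.20) were intermediate, and Igfbpl1 (0.604 ± 0.378), Draxin (0.176 ± 0.036) and Eomes (0.0875 ± 0.0615) were low. Each gene was above the next in this order in 12 of 12 libraries, except that Draxin exceeded Eomes in 11. The ranges over libraries nevertheless overlapped for Calb2 and Dpysl3, Dpysl3 and Neurod1, Neurod1 and Sox4, Dcx and Igfbpl1, and Draxin and Eomes. The immature neuron marker Dcx had between 629 and 907 counts per library, whereas the progenitor marker Eomes had between 4 and 50. Draxin had between 22 and 55 counts and only just passed the expression filter, which asked for a CPM of at least 1 in at least 3 libraries. Eomes did not pass it, so 8 of the 9 members were tested among 15521 genes.

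**Figure D1:**
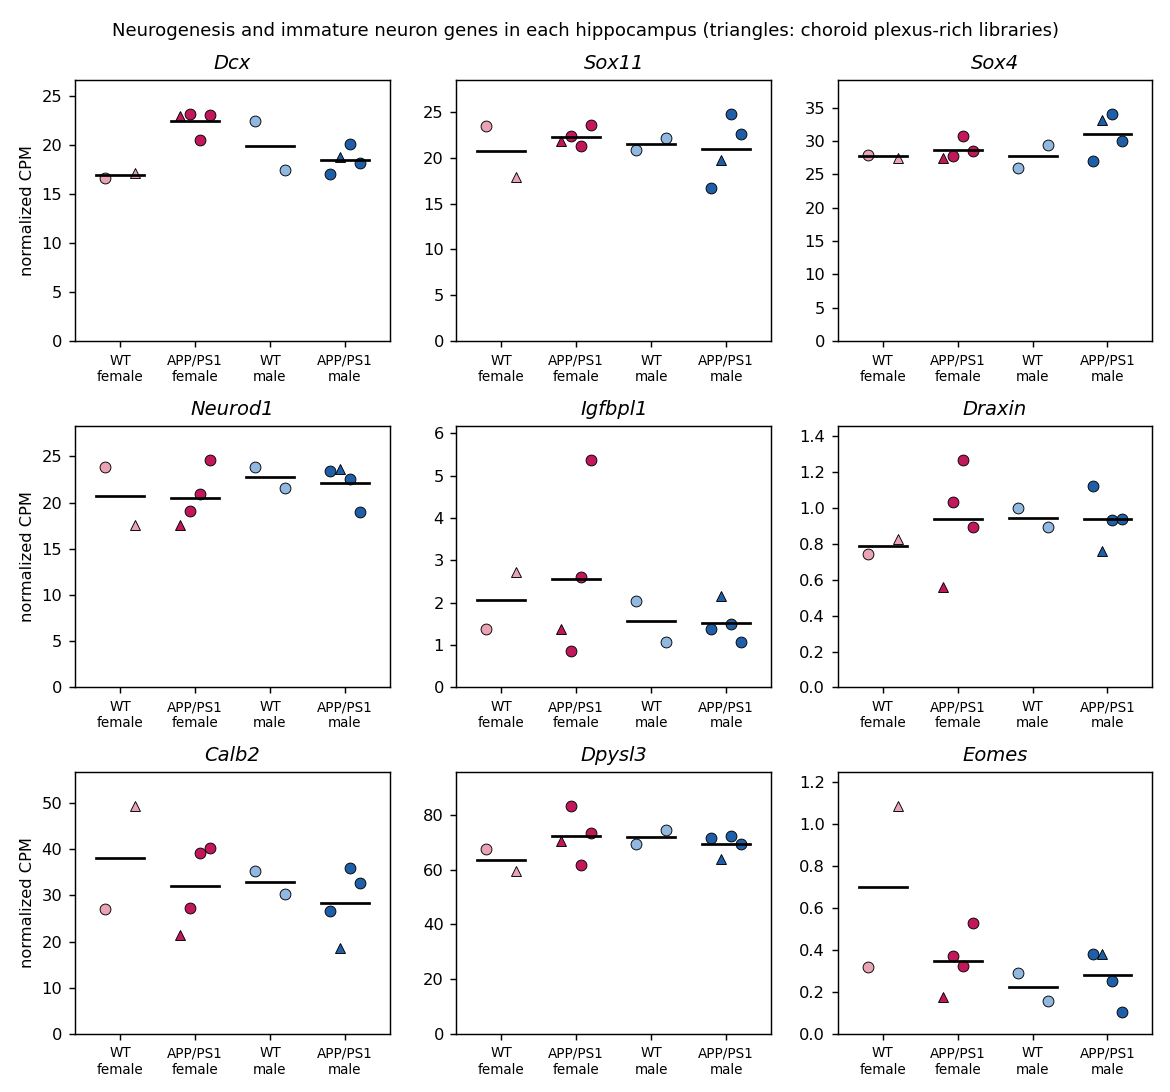
Normalized CPM (y axis, from 0) of the 9 neurogenesis and immature neuron genes in each of the 12 hippocampi, by group (x axis); points are animals, triangles are the 3 libraries with high choroid plexus transcripts, and bars are group means. For Dcx, the 4 APP/PS1 females lie between 20.5 and 23.2 CPM and both WT females at or under 17.1 CPM, while the groups overlap for every other gene in females and for all 9 genes in males.

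Taking both sexes together, no member was differentially expressed between APP/PS1 and WT hippocampus. At an FDR under 0.1 (edgeR quasi-likelihood test, Benjamini-Hochberg adjustment over all genes tested), 0 of 8 members were called, where 1.91% of all genes tested were called (297 genes, 272 of them higher in APP/PS1). At an unadjusted p under 0.05 the count was also 0 of 8, beside 9.68% of all genes, and neither edgeR's likelihood ratio test nor DESeq2 called a member. The members' log2 fold changes (LFCs) ran from -0.28 (Calb2) to 0.14 (Dcx) with a median of 0.066, and 5 of 8 were above 0. Over all genes the median LFC was 0.011 and 54.8% were above 0. On the normalized CPM of single genes, the 8 APP/PS1 and 4 WT animals overlapped for all 9 members, where 1.37% of all genes tested had every APP/PS1 animal above every WT animal and 0.122% the reverse. The two-sided exact permutation test over the 495 splits of 12 animals, which can reach 0.00202 at the lowest, gave p between 0.18 (Sox4) and 0.836 (Igfbpl1). In a whole-tissue library a change in the number of immature neurons and a change in the RNA of each cannot be told apart.

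When the sexes were separated, Dcx stood higher in APP/PS1 than in WT females. It measured 22.9, 23.2, 20.5 and 23.1 CPM in the 4 APP/PS1 females (22.4 ± 1.28, SD, n = 4) and 16.7 and 17.1 CPM in the 2 WT females (16.9 ± 0.327, SD, n = 2). All 4 APP/PS1 females were thus above both WT females, a separation that 12.7% of all genes tested also showed, with 5.88% separated the other way. The fitted LFC was 0.40 (SE 0.11), a fold of 1.32 with a 95% confidence interval from 1.11 to 1.55. With an unadjusted p of 0.00349, Dcx ranked 259 of 15521 genes in the edgeR quasi-likelihood test. Its FDR of 0.208 was above the threshold, so the difference was not called in that test. The likelihood ratio test of edgeR, the test named in the study's methods, called Dcx higher (FDR 0.0563). That test called more of all genes in females than the quasi-likelihood test, which called 0.799%.

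In males the Dcx values of the genotypes overlapped, as did those of the other 8 members, where 6.71% of all genes tested had all 4 APP/PS1 males above both WT males and 4.48% had them below. It measured 17.0, 18.8, 20.1 and 18.2 CPM in the 4 APP/PS1 males (18.5 ± 1.29, SD, n = 4) and 22.4 and 17.5 CPM in the 2 WT males (19.9 ± 3.49, SD, n = 2). The WT males lay far apart, with 1 above every APP/PS1 male and the other below 3 of the 4. The LFC was -0.11 (SE 0.11, edgeR unadjusted p = 0.326), and its 95% interval as a fold reached from 0.789 to 1.09. Without WT male 1 the LFC was 0.077 and without WT male 2 it was -0.28, so the sign in males depended on a single WT animal.

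The APP/PS1 effect on Dcx was larger in females than in males by 0.51 on the log2 scale (SE 0.16). This difference had an unadjusted p of 0.00664 in the edgeR interaction test, ranked 58 of 15521 genes, and had an FDR of 0.998 after adjustment. No gene passed the FDR in the interaction (0%), 3.79% of all genes had an unadjusted p under 0.05, and edgeR's likelihood ratio test and DESeq2 called 7 and 2 genes, with no member among them. Dcx was the only member with an unadjusted interaction p under 0.05. WT males averaged above WT females in Dcx, and the interaction rests on the 2 animals of each of these groups.

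Across 23 processing alternatives the female Dcx LFC stayed between 0.36 and 0.43 and kept an unadjusted p under 0.05 in all 23, with the FDR between 0.0563 and 0.801. It passed the FDR with edgeR's likelihood ratio test (FDR 0.0563), and in the fits without WT male 1 (0.0978) and without WT male 2 (0.0926), in which 1 WT male was left and was assumed to vary like the other groups. Without the 3 libraries rich in choroid plexus transcripts it was 0.42 (FDR 0.237), with 1 WT female left. DESeq2 gave 0.37 (FDR 0.143). The 23 alternatives are not independent of the main fit. The setting at an FDR of 0.05 has the LFC and p of the main fit, and omitting a male leaves the same females in the contrast. The interaction LFC lay between 0.34 and 0.70.

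**Figure D2:**
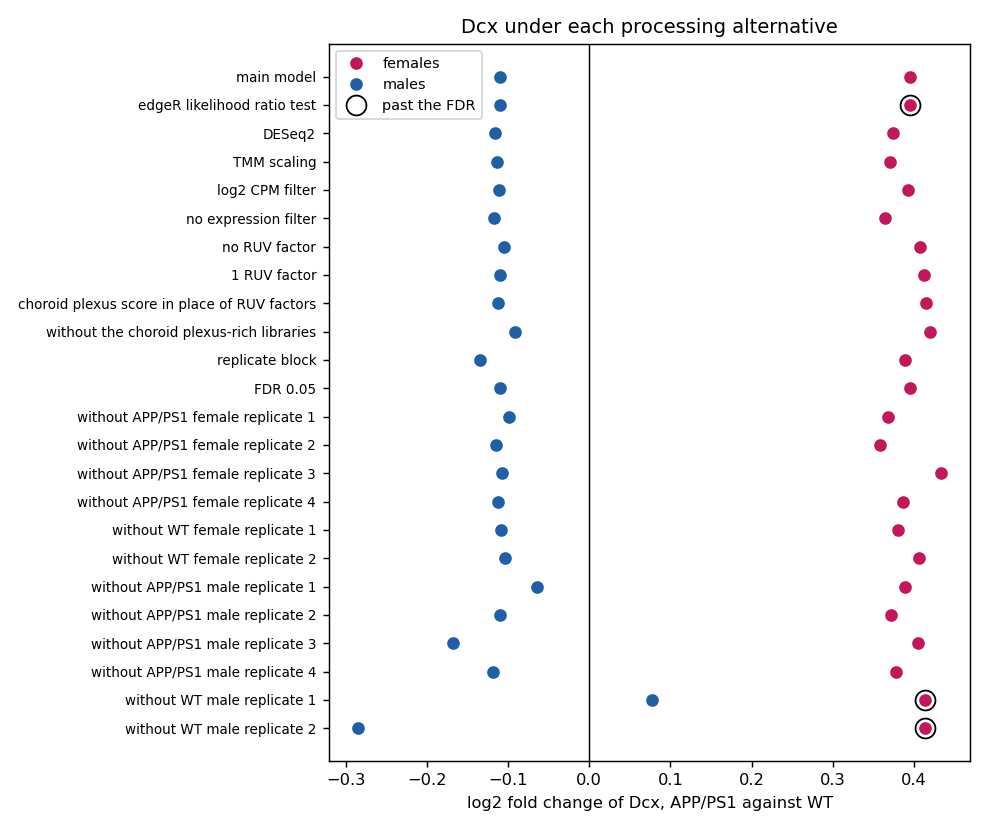
Log2 fold change of Dcx, APP/PS1 against WT (x axis), in females and males under the main model and each of the 23 alternatives (y axis); open rings mark fits in which the female value passed the FDR. The female values lie between 0.36 and 0.43, and the male values lie below 0 except at 0.077 without WT male 1.

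Sox11 and Sox4, the transcription factors of the immature neuron programme, had smaller LFCs than Dcx in females. Sox11 measured 21.8, 22.4, 21.3 and 23.6 CPM in APP/PS1 females, and 23.5 and 17.9 CPM in WT females. The WT females lay on either side of 3 of the 4 APP/PS1 females, and the LFC was 0.095 (SE 0.14). In males Sox11 ran from 16.7 to 24.8 CPM in the APP/PS1 animals with 20.8 and 22.1 CPM in the WT animals, for an LFC of 0.0097 (SE 0.13). Sox4 lay between 27.4 and 30.8 CPM in APP/PS1 females against 27.5 and 27.9 CPM in WT females (LFC 0.046, SE 0.10). In males Sox4 was 27.0, 33.1, 34.1 and 30.0 CPM with the transgenes and 26.0 and 29.5 CPM without, an LFC of 0.16 (SE 0.10) at an edgeR unadjusted p of 0.143. For both genes the groups overlapped in each sex.

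Dpysl3, which shapes the growth cone of young neurites, had the largest female LFC after Dcx among the members with a positive value. It measured 70.4, 83.1, 61.7 and 73.4 CPM in APP/PS1 females and 67.6 and 59.5 CPM in WT females. APP/PS1 female 3 lay between the WT females and the other 3 lay above both, and the LFC of 0.18 (SE 0.096) had an edgeR unadjusted p of 0.0881. In males the APP/PS1 animals lay between 63.9 and 72.3 CPM and the WT animals at 69.4 and 74.3 CPM (LFC -0.017, SE 0.094). The 95% interval of the Dpysl3 fold, both sexes averaged, had a lower limit of 0.957.

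Neurod1, active in late progenitors and young granule neurons, had a fitted LFC below 0 in both sexes. It was 17.6, 19.1, 20.9 and 24.6 CPM in APP/PS1 females and 23.9 and 17.6 CPM in WT females, a similar span in both (LFC -0.14, SE 0.090). APP/PS1 males had 23.4, 23.6, 22.5 and 18.98 CPM and WT males 23.9 and 21.6 CPM (LFC -0.0093, SE 0.088). Draxin, at the edge of detection, lay between 0.557 and 1.26 CPM in APP/PS1 females against 0.742 and 0.825 CPM in WT females, and between 0.761 and 1.12 CPM in APP/PS1 males against 0.998 and 0.891 CPM in WT males. Its LFCs were 0.13 (SE 0.32) in females and 0.096 (SE 0.30) in males, and in females the 95% interval of its fold began at 0.674.

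Igfbpl1 varied between animals far more than between genotypes. It was 1.39, 0.873, 2.6 and 5.37 CPM in APP/PS1 females, 1.38 and 2.74 CPM in WT females, 1.38, 2.16, 1.5 and 1.07 CPM in APP/PS1 males, and 2.05 and 1.07 CPM in WT males. APP/PS1 female 4 was the highest of the 12 libraries and APP/PS1 female 2 the lowest, with 193 and 33 counts. The LFCs were -0.29 (SE 0.40) in females and -0.11 (SE 0.39) in males. The sign in females changed with the RUV factors and with the libraries included. The value was 0.30 without RUV factors, 0.36 with 1 factor, 0.40 with the choroid plexus score in their place, 0.47 without the choroid plexus-rich libraries and 0.27 without WT female 2. Between the sexes, Igfbpl1 was higher in females by 0.73 on the log2 scale (SE 0.28, edgeR FDR 0.756). The value ran from 0.42 without APP/PS1 female 4, the animal with the highest Igfbpl1, to 1.03 without WT female 1, and the unadjusted p was under 0.05 in 14 of the 23 alternatives. In the main model it was the only member with an unadjusted p under 0.05 in that contrast, where 6.01% of all genes had such a p, and 0 of 8 members were called, beside 0.103% of all genes.

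Calb2 was the most variable of the more abundant members, and its extremes fell in the libraries with choroid plexus transcripts. It measured 21.4, 27.3, 39.2 and 40.4 CPM in APP/PS1 females and 27.0 and 49.4 CPM in WT females, and 26.7, 18.7, 35.9 and 32.6 CPM in APP/PS1 males against 35.4 and 30.3 CPM in WT males. WT female 2 had the highest value, and APP/PS1 male 2 and APP/PS1 female 1 the lowest values of all 12 libraries, and these are the 3 libraries with high Ttr. The LFC was -0.43 (SE 0.40) in females, -0.13 (SE 0.37) in males and -0.28 (SE 0.26) over both sexes. Without the 3 libraries the female value was 0.37 and the value over both sexes 0.17. Without WT female 1, which leaves WT female 2 as the only WT female, Calb2 was called lower in APP/PS1 in females (LFC -1.22, edgeR FDR 0.0943) and over both sexes (-0.63, FDR 0.053), and called higher in females than in males (0.75, FDR 0.0979). Without WT female 2 the female value was 0.33 (FDR 0.623). Markers of interneurons and Cajal-Retzius cells, which also make Calb2, had 0 of 8 tested genes called in each sex, and their sum in the 3 libraries (848, 908 and 848 CPM) lay within the range of the other 9 (805 to 976 CPM). Gad1, Gad2 and Cnr1 (medians 366, 197 and 256 CPM) made up most of this sum, so it says little of Cajal-Retzius cells, and 7 of the 8 tested genes had LFCs below 0 in females. Of the Cajal-Retzius markers, Trp73 was 4.996 CPM in WT female 2, 4.6 CPM in APP/PS1 female 1 and 7.53 CPM in APP/PS1 male 2, against 2.21 to 3.4 CPM in the other libraries, so it was high in all 3, whereas Calb2 was high in WT female 2 and low in the other two. Lhx1 (0.161 to 0.381 CPM in APP/PS1, 0.184 to 0.376 CPM in WT) and Lhx5 (0.0477 to 0.184 CPM in APP/PS1, 0.198 to 0.315 CPM in WT) were close to 0 and below the filter, and the median of each of the 3 was lower in APP/PS1 than in WT. The part of the choroid plexus transcripts and of other Calb2-positive cells in the Calb2 values was not tested.

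Eomes, the marker of intermediate progenitors, was too low for the filter. It measured 0.177, 0.37, 0.322 and 0.528 CPM in APP/PS1 females, 0.318 and 1.09 CPM in WT females, 0.382, 0.38, 0.25 and 0.101 CPM in APP/PS1 males and 0.289 and 0.158 CPM in WT males. WT female 2, at 50 counts, held more than any other library, and the other 11 had between 4 and 19. Without an expression filter the female LFC was -1.22 (SE 0.53, edgeR unadjusted p = 0.0259, FDR 0.69). The groups overlapped in both sexes, and WT female 2 was also the library with the highest sum of the thalamus and habenula markers, 105 CPM against 72.2 to 90.7 CPM elsewhere. Of these markers Gbx2, Pou4f1, Gng8 and Tcf7l2 reached at most 0.0761, 0.137, 0.934 and 4.35 CPM in any library. Slc17a6, Zic1, Prkcd and Lhx9 reached 41.6, 26.3, 25.6 and 19.6 CPM. WT female 2 was rich in choroid plexus transcripts and had the highest Calb2 (49.4 CPM). Its Trp73 was 4.996 CPM, where the median over all libraries was 2.76 CPM. Trp73 was also high in APP/PS1 male 2 (7.53 CPM) and APP/PS1 female 1 (4.6 CPM), where Eomes was 0.38 and 0.177 CPM. The part of other tissues or cell types in the Eomes value was not tested.

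**Figure D3:**
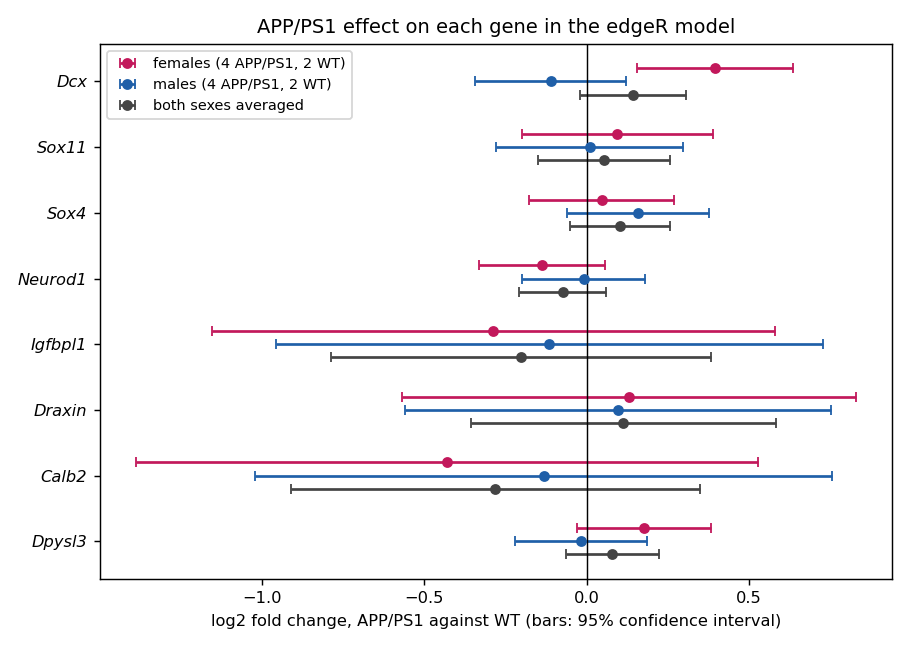
Log2 fold change, APP/PS1 against WT (x axis), of the 8 members that passed the filter (y axis), in females, in males and averaged over both sexes; points are the fitted values and bars their 95% confidence intervals in the edgeR model. The female interval of Dcx is the only one of the 24 that does not include 0, and the intervals of Igfbpl1, Draxin and Calb2 are the widest.

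In females 0 of 8 members were called, beside 0.799% of all genes, and 1 (Dcx) had an unadjusted p under 0.05, beside 9.61%. The likelihood ratio test, which called more of all genes in females than the main test, called 1 member (Dcx) and DESeq2 called 0. In males 0 of 8 were called, beside 0.161% of all genes, none had an unadjusted p under 0.05, beside 5.49%, and both other tools called 0. The median member LFC was 0.071 in females and -0.013 in males, and the medians over all genes were 0.018 and 0.0039. Of the 8 members 5 had an LFC above 0 in females and 3 in males, beside 55.3% and 51.6% of all genes. Without the 3 choroid plexus-rich libraries the member medians were 0.24 in females (6 of 8 above 0), -0.021 in males (2 of 8) and 0.13 over both sexes (6 of 8), and 0 members were called. The intervals show what the design could resolve when the 2 RUV factors are taken as known. For Neurod1 and Dpysl3 averaged over both sexes the lower limits were folds of 0.866 and 0.957, whereas for Calb2 the lower limit was 0.532. The SEs of these 3 LFCs were 0.062, 0.066 and 0.26 in the main model, and 0.10, 0.073 and 0.24 without RUV factors.

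No correlation of Dcx with another member passed its test. Across the 12 libraries, the Pearson correlation of log2(CPM + 1) of Dcx was 0.41 with Dpysl3 (Spearman's rho 0.39) and 0.40 with Sox11 (rho 0.27). The permutation test gave p = 0.18 and p = 0.204 for these Pearson values, and an adjusted p = 0.815 for both over the 8 relations computed. With Igfbpl1 it was 0.26 (rho 0.15), and with Sox4, Neurod1, Draxin, Calb2 and Eomes it was -0.12, -0.07, -0.0014, -0.0056 and -0.14 (rho -0.014, -0.028, 0.15, 0.14 and -0.014, adjusted p = 0.997 for these 6 by permutation). Without the 2 libraries farthest from the Dcx median, APP/PS1 females 2 and 4, the values for Dpysl3 and Sox11 were 0.09 and 0.29. Over the 28 pairs of the 8 tested members the median r was 0.047, and the pairs ranged from -0.42 to 0.48 (Igfbpl1 with Calb2). The genes whose profile over the 12 libraries was most like the members' mean standardized profile were Atp6v1c1 (r = 0.93), Rims2 (0.92), Ykt6 (0.90), Pfdn2 (0.90) and Atp6v1b2 (0.89), of 15513 genes ranked. Each member's own r with the mean of the other 7 lay between 0.047 and 0.35, so this mean profile describes no member closely.

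Genes of the earlier steps of neurogenesis gave few calls. Of 14 tested genes of stem and radial glia-like cells, 0 were called in any of the 3 genotype contrasts, and 1 each had an unadjusted p under 0.05 over both sexes and in males. That gene was Nes (nestin, an intermediate filament of stem cells), with LFCs of 0.31 (SE 0.10, FDR 0.297) over both sexes and 0.62 (SE 0.15, FDR 0.293) in males. In females its LFC was -0.0065 (SE 0.15), so the value over both sexes came from the males. Nes was called in males by the likelihood ratio test and by DESeq2. Nestin is also made by blood vessel and reactive glial cells. In females Vim (vimentin) had the smallest p, with an LFC of 0.33 (FDR 0.534). Of 16 cell cycle genes 11 were tested and 0 were called, with 3 at an unadjusted p under 0.05 over both sexes, 2 in females and 1 in males, all higher in APP/PS1. Top2a, the topoisomerase of dividing cells, had an LFC of 0.58 (SE 0.16, FDR 0.13) over both sexes and was called there by the likelihood ratio test but not by DESeq2, and Mki67 had 0.50 (SE 0.18, FDR 0.344). In females Mki67 had 0.78 (FDR 0.324) and Top2a 0.59 (FDR 0.413), and in males Top2a had 0.57 (FDR 0.804) and Mcm6 0.21 (FDR 0.947). Microglia divide as well, and markers of plaque-associated microglia rose in the same animals: 7 of 10 passed the FDR over both sexes, 6 in females and 4 in males, led by Cst7 (LFC 7.04), Itgax (4.05), Ccl6 (2.94) and Clec7a (5.68). Their part in the cell cycle values was not tested.

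Of 22 other neuroblast and immature neuron genes, all tested, 1 rose over both sexes and none were called in either sex alone. That gene was Tmsb10 (thymosin beta 10, an actin-binding protein of young neurons), with an LFC of 0.27 (SE 0.069, FDR 0.0958). The call was close to the threshold and held in 10 of the 23 alternatives, with LFCs between 0.20 and 0.35. It was lost, with an FDR up to 0.392, without APP/PS1 female 1, 2 or 3, APP/PS1 male 1, 2 or 3, WT female 1 or either WT male. It was also lost with the log2 CPM filter (FDR 0.105), without RUV factors (0.118) and at an FDR of 0.05. In females Tmsb10 had 0.40 (SE 0.10, FDR 0.141) and Tbr1, a transcription factor of excitatory neurons, 0.30 (SE 0.088, FDR 0.233). In males the smallest p-values belonged to Cd24a (LFC -0.43, FDR 0.412) and Neurog2 (0.84, FDR 0.675). At an unadjusted p under 0.05, 5 genes were higher and 1 lower in APP/PS1 females, and 1 was higher and 2 lower in APP/PS1 males. Over both sexes the likelihood ratio test called Stmn1 and Tmsb10 higher and Nnat lower, and DESeq2 called Stmn1 and Tmsb10 higher. The likelihood ratio test called 3 in females (Stmn1, Tbr1 and Tmsb10, all higher) and 2 in males (Cd24a and Nnat, both lower), and DESeq2 called Tmsb10 in females and 0 in males. The list's median LFC was 0.091 in females and -0.04 in males. All but Neurog2, Insm1, St8sia2 and Cd24a had a higher median level than Dcx (19.4 CPM), up to 325 CPM for Stmn2. The part of mature neurons in the values of this list was not tested.

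At the other end of the lineage, the 14 mature granule neuron genes had LFCs below 0 in females in 14 of 14 cases, with a median of -0.15. None passed the FDR and 5 had an unadjusted p under 0.05. Prox1, the transcription factor that defines granule neurons, had the smallest p, with an LFC of -0.28 (SE 0.074, FDR 0.162), and was called lower by both the likelihood ratio test and DESeq2, followed by Il16 (-0.39, FDR 0.405). Without the 3 choroid plexus-rich libraries the female median was -0.34, with 14 of 14 below 0. That fit leaves WT female 1 as the only WT female, the animal with the highest summed level of this list among all 12 libraries (1098 CPM). Over both sexes 12 of 14 were below 0 in that fit, against 9 of 14 with all libraries. In males 11 of 14 were above 0 and the median was 0.13, none passed the FDR, and 1 had an unadjusted p under 0.05 (Calb1, -0.15, FDR 0.862). Lct came next in males (0.36, FDR 0.947). Over both sexes Calb1 had -0.13 (FDR 0.308) and C1ql3 -0.12 (FDR 0.553). The summed level of this list did not separate the groups: it was 1098 and 841 CPM in the 2 WT females and 856 to 1008 CPM in the APP/PS1 females, so the WT females lay on either side of all 4. The LFCs of the list share these animals and the 2 RUV factors.

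Niche signals and their receptors gave 0 calls among 31 tested genes in each of the 3 genotype contrasts. At an unadjusted p under 0.05 there were 4 over both sexes, 1 in females and 3 in males. Igf1 (insulin-like growth factor 1, made in part by microglia) had an LFC of 0.32 (SE 0.09, FDR 0.151) over both sexes, where the likelihood ratio test and DESeq2 called it, and 0.39 (FDR 0.323) in females. Kdr, the vascular endothelial growth factor receptor, had 0.35 (FDR 0.337) over both sexes. Shh (sonic hedgehog) had 0.41 (FDR 0.544) in females and -0.47 (FDR 0.8) in males, and Reln (reelin) -0.17 (FDR 0.745) in males.

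**Figure D4:**
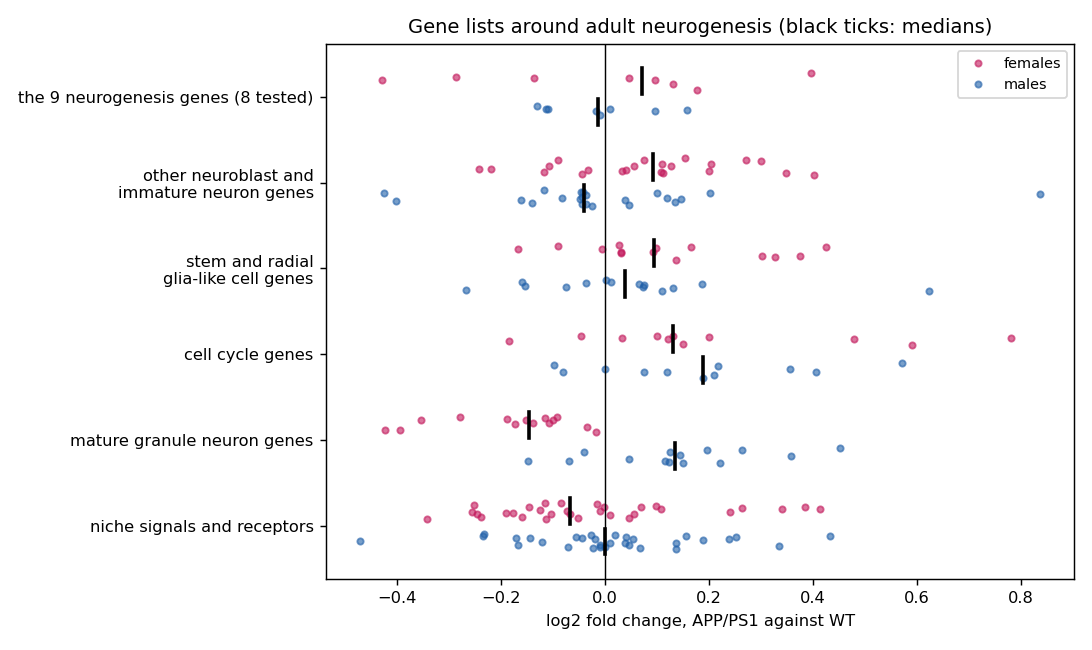
Log2 fold change, APP/PS1 against WT (x axis), of single genes in 6 lists around adult neurogenesis (y axis), in females and males. Points are genes, with vertical jitter for legibility, and black ticks are list medians. All 14 mature granule neuron genes lie below 0 in females (median -0.15) and 11 of 14 above 0 in males (median 0.13), and the median of the tested members is 0.071 in females.

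Apart from those of plaque-associated microglia and choroid plexus, no list of markers of other cells had a call in the 3 genotype contrasts. Of 10 oligodendrocyte precursor genes 0 were called and 2 had an unadjusted p under 0.05 over both sexes (Pdgfra, LFC -0.11, and Enpp6, 0.27), 0 in females and 1 in males, and their sum lay between 381 and 476 CPM. Interneuron and Cajal-Retzius genes had 0 of 8 called and 1 at an unadjusted p under 0.05 over both sexes and in females, Gad1, at -0.16 (FDR 0.386) in females. Subventricular and olfactory neuroblast genes, which mark newborn neurons of the lateral ventricle wall that also make Dcx, had 0 of 7 called and 1, 2 and 0 at an unadjusted p under 0.05 over both sexes, in females and in males, and their sum lay between 49.7 and 75.7 CPM. All 7 had LFCs below 0 in females, with Sp8 at -0.68 (FDR 0.306) and Sp9 at -0.32 (FDR 0.459) and a median of -0.22. Without the 3 choroid plexus-rich libraries 4 of 7 were below 0 and the median was -0.05. Thalamus and habenula genes (5 tested, Lhx9 -0.37 in females, FDR 0.347) and striatum genes (6 tested) had 0 calls and 1 and 0 genes at an unadjusted p under 0.05 in females, although the likelihood ratio test called Lhx9 lower in females and over both sexes. Hippocampal neuron genes had 0 of 6 called and 1 at an unadjusted p under 0.05 in females, Grik4, at -0.24 (FDR 0.394). For the lists of this paragraph up to here, the likelihood ratio test made no other call and DESeq2 made none. In the choroid plexus list Kl (klotho) fell in females (LFC -0.46, FDR 0.046), a call that held in 14 of the 23 alternatives. It was lost without the 3 choroid plexus-rich libraries (FDR 0.316), without RUV factors (0.908), with 1 factor (0.499), with the choroid plexus score (0.431), and without APP/PS1 female 2 or 3, APP/PS1 male 2 or either WT female. The LFC of Kl ran from -1.13 without APP/PS1 female 1 to -0.29 with the choroid plexus score.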

How the data were processed

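Whole right hippocampi were sequenced as directional poly-A libraries. Per the labels and the study's methods, Trimmomatic was used for trimming, STAR for alignment against GRCm38 and HTSeq for counting, and the authors deposited raw counts per gene. The strand option and the annotation release are not given in the sources used here. Of 55573 identifiers, 55480 matched GENCODE M21.

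Genes with a CPM of at least 1 in at least 3 libraries (15521) were scaled by upper-quartile factors and tested in edgeR 4.0.16 (R 4.3.3) with a quasi-likelihood model of 4 group means and 2 RUV factors, re-implemented from RUVg with all but the top 5000 genes of a first pass as controls. Contrasts were two-sided, and an FDR under 0.1 (Benjamini-Hochberg) was called. The stated filter is on log2 CPM, but the CPM filter gave the number of genes stated in the methods. Intervals are 95% limits of the fit. Correlations used 100000 resamples (scipy 1.17.1). The study's methods name edgeR's likelihood ratio test, which was an alternative here. Other alternatives were DESeq2 1.42.0, TMM, other filters, RUV settings, a choroid plexus score and a replicate block. The rest were omission of the choroid plexus-rich libraries (Ttr above 1000 CPM), an FDR of 0.05 and omission of each animal. The procedure was tested on simulated data.

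The members and the gene lists were chosen with earlier results of these data known. All members are named, and in each list the genes past the FDR (at most 4, by smallest p) or, where none passed, the 2 with the smallest p are named in the genotype contrasts. For marker lists without calls, only some of these are given. The results of some genes under this rule are not reported here. Genes called by another tool alone were chosen after their values were seen. Each library was taken as a separate animal, as the titles number them, and within each group all pairs of libraries differed by more than sampling noise. Depth was 36714316 to 50643565 counts, so animal-to-animal spread limits all but the lowest genes.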

Additional observations from a re-analysis of the deposited data

Results flagged for a closer look

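Dcx in APP/PS1 female 3, at 20.5 CPM, lay apart from the other 3 APP/PS1 females (22.9 to 23.2 CPM), and the gap exceeded the 95% limit of Dixon's test for 4 samples. It was 1 of 18 sets of 4 values tested, and chance alone gives about 1 in 20. Without that animal the female LFC of Dcx was 0.43, and it had the lowest level of the 4 while still above both WT females.

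The APP/PS1 effect on Dcx differed between the sexes by 0.51 on the log2 scale at an unadjusted edgeR p of 0.00664. The adjusted p was 0.998, so the difference failed the correction over all genes. All 4 APP/PS1 females were above both WT females, whereas the male groups overlapped.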

How the results depend on the processing

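Every setting called between 0 and 1 members per contrast. Omitting 1 animal gave 0 to 1 members called over both sexes, in females and between the sexes, 181 to 401 genes over both sexes, 23 to 191 in females, 6 to 102 in males and 10 to 32 between the sexes. The likelihood ratio test called 556 genes over both sexes, 436 in females (1 member, Dcx), 242 in males, 7 in the interaction and 86 between the sexes. In the same order the main model called 297, 124, 25, 0 and 16 of 15521 genes. DESeq2 called 311 in females, 130 in males, 2 in the interaction and 33 between the sexes. Without an expression filter there were 197 in females, 42 in males and 6 in the interaction, an FDR of 0.05 left 78 in females and 15 in males, and without the choroid plexus-rich libraries 43 were called in males.

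No member was called in the main model in any contrast, so every change of sign below is in a value that was not called there. Without the choroid plexus-rich libraries the LFC of Sox11 was -0.025 over both sexes, -0.017 in females and -0.033 in males, that of Igfbpl1 0.23 over both sexes and 0.47 in females, that of Calb2 0.17 over both sexes, 0.37 in females and -0.047 between the sexes, and the correlation of Dcx was 0.27 with Draxin, 0.56 with Calb2 and 0.48 with Eomes. Igfbpl1 was 0.15 over both sexes and 0.36 in females with 1 RUV factor, 0.15 and 0.40 with the choroid plexus score, and 0.14 and 0.30 without RUV factors. Neurod1 in males was 0.010 with 1 factor, 0.0093 with the score and 0.0060 without a filter. Sox11 in males was -0.035 without RUV factors and -0.015 without a filter, Draxin in males -0.0059 without RUV factors, Igfbpl1 in males 0.038 without a filter, and Dcx with Calb2 0.026 (correlation) under TMM. Same-numbered libraries of different groups had a median correlation of deviations of 0.020 (4 of 14 pairs over 0.1), and differently numbered ones 0.0015 (16 of 38). The deviations of the 2 WT animals of a sex mirror each other. This check therefore cannot decide whether the replicate numbers pair the animals. With the replicate block, Sox11 was -0.033 over both sexes and -0.099 in males, Sox4 -0.017 in females, Neurod1 0.032 in males and Dpysl3 0.11 in males, 0 members were called, and Tmsb10 over both sexes had an FDR of 0.235.

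Omitting 1 animal gave ranges that crossed 0 for Sox11 (both sexes -0.022 to 0.13, females -0.034 to 0.27, males -0.087 to 0.13), Neurod1 (-0.15 to 0.014, -0.29 to 0.057 and -0.029 to 0.056), Igfbpl1 (-0.44 to 0.17, -0.88 to 0.27 and -0.36 to 0.23), Draxin (-0.063 to 0.27 over both sexes, -0.26 to 0.44 in females), Calb2 (-0.63 to 0.14 over both sexes, -1.22 to 0.33 in females, -0.038 to 0.75 between the sexes), Dpysl3 in males (-0.064 to 0.025) and Dcx in males (-0.28 to 0.077). Of 327 such values 298 kept their sign and side of the threshold, and of 305 under the other alternatives 278 did. Since no member was called in the main model, only a new call could change the side of the threshold. Draxin had a value in 19 of the 23 alternatives, since it failed the filter in the others. Where 1 WT animal of a sex was left, it was assumed to vary like the other groups. The cause of these changes was not tested, and 2 WT animals per sex and the low counts of Draxin and Eomes limit what can be resolved.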
